A study of Mus musculus with 16 samples.

Results

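The 10 genes described here are the 2 liver X receptors (LXRs), Nr1h2 and Nr1h3, and 8 of the genes that LXRs are known to drive, Abca1, Abcg1, Apoe, Mylip, Srebf1, Lpcat3, Scd1 and Scd2. They were picked by name, as 10 of 49166 genes matched in the libraries, and all 10 passed the filter on low counts. The list was drawn up with results of these libraries in view, among them the higher Abca1 level in cultures given androgen and enzalutamide than in cultures given vehicle. The fold changes and adjusted p-values that follow, also those of the other 9 genes in the same comparisons, therefore describe these libraries and are not independent tests of the list.

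RNA came from 16 cultures of mouse neural progenitor cells (NPCs) grown from E18.5 cortex, in 4 groups of 4 biological replicates. KO DHT+ENZ cultures carried a lentivirus with Cas9 and a guide RNA against Chd1, a chromatin remodeller gene, and received 10 µM enzalutamide (ENZ, an androgen receptor antagonist), joined after 30 min by 10 nM dihydrotestosterone (DHT, an androgen) for 24 h. KO DHT cultures carried the same virus and received 10 nM DHT after DMSO, and KO DMSO cultures carried it and received DMSO, the vehicle. WT DMSO cultures, labelled wild type, carried a control virus with Cas9 and no guide and received DMSO. All 4 groups thus expressed Cas9, and all were grown with FGF-2 and EGF and treated after 48 h of puromycin selection and expansion, with no clone named in the labels. Embryos from 2 litters supplied the cells, with no record in the labels of which litter gave which replicate. WT cultures with DHT, and any culture with ENZ alone, were not part of the set, so an action of ENZ on the response to DHT and any other action of ENZ cannot be told apart.

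LXRs are nuclear receptors that bind oxidised forms of cholesterol (oxysterols) and act as partners of retinoid X receptors on DNA. Nr1h2 encodes LXRβ, which is made in most tissues, and Nr1h3 encodes LXRα, which is most abundant in liver, fat, gut and macrophages. When ligand is bound, the receptors raise genes that move cholesterol out of cells and load it onto lipoproteins, and genes that make and desaturate fatty acids. In brain, where cholesterol is made locally, glia export it on particles that carry APOE, loaded by the transporters ABCA1 and ABCG1.

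The sequences upstream of Abca1 and Srebf1 are shown because they hold a shared stretch within 3 mismatches of an LXR element, a direct repeat of a 6-base half-site with a spacer of 4 bases. RefSeq start windows (build GRCm38.p6, 250 bases before to 50 after each start) were at hand for 7 of the 10 genes, in 12 windows. Windows were not at hand for Abcg1, Scd1 and Scd2. Each line gives the 250 bases before the start, 5′ to 3′ on the gene's strand, and the capitals mark the stretches found by the searches described after them. The first is chr4:53159896-53160145 (minus strand), before the start of Abca1. The other is chr11:60210472-60210721 (minus strand), before the most downstream of 3 Srebf1 starts, that of transcript Srebf1-207.
Abca1: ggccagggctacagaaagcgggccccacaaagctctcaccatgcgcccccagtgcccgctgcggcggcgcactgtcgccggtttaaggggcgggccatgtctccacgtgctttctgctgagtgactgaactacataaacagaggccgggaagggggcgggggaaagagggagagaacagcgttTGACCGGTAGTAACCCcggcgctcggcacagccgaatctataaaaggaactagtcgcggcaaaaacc
Srebf1: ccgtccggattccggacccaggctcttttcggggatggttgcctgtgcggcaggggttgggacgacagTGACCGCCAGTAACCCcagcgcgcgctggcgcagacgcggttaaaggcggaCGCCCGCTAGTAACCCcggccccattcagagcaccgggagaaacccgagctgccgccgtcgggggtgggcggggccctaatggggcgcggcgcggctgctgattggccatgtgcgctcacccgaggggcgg

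Read on the opposite strand, the stretch in Abca1 is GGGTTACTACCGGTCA and lies at -67 to -52 from the start. The stretches in Srebf1 are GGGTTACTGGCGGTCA at -182 to -167 and GGGTTACTAGCGGGCG at -131 to -116. The consensus repeat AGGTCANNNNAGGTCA, searched on both strands, stood in 5 of 32851 RefSeq start windows of the same length (0.0152%) and in 0 of the 12 windows of these genes. With up to 3 mismatches in its 12 fixed letters it was found in 21.9% of all windows and in 2 of the 12, at -67 in Abca1 and at -182 in Srebf1. The letters shared by these 2 stretches, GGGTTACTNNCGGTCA, stood on either strand in 3 of all the windows (0.00913%), 2 of them the windows printed above. With up to 2 mismatches, they were found in 32 windows (0.0974%) and in no further window of these genes. The other Srebf1 stretch was found only by this last search and is not within 3 mismatches of the consensus. The shared letters came from the windows themselves, so their presence in both is a description.

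The shallowest library, WT DMSO replicate 1, held 20.2 M (mega) estimated counts, which are kallisto's share of reads per transcript, summed. The other 15 held 31.8 to 36.9 M. WT DMSO replicate 1 also stood apart in some of the 10 genes, so results that it moved are given with and without it. Chd1 RNA was 68.2 ± 5.73 CPM (counts scaled to a common library total) in KO DHT+ENZ, 72.0 ± 3.87 in KO DHT, 67.3 ± 2.68 in KO DMSO and 66.7 ± 5.73 in WT DMSO (SD, n = 4 each), and since small insertions or deletions need not lower RNA this neither checks nor contradicts the labels. Of the 8 progenitor markers, Nes, Vim, Fabp7 and Slc1a3 each stood at 763 CPM or more in every library, Sox2 at 168 to 247, Hes1 at 36.1 to 53.0, Pax6 at 23.5 to 31.8 and Hes5 at 0.224 to 1.15 CPM. Of 8 microglial and macrophage markers, C1qa and Tyrobp had 0 counts in all 16 libraries, which allows up to 3 counts, or 0.150 CPM in the shallowest library. Aif1, Tmem119 and Ptprc were at 0 in some libraries, while P2ry12 (1.72 to 4.06 CPM), Csf1r (0.132 to 1.09) and Cx3cr1 (0.0297 to 1.91) were above 0 in all. Astrocyte and oligodendrocyte markers were also present, with Olig1 at 941.8 to 1559 CPM and Gfap at 0.937 to 2.14 CPM. Summed over the whole lists, the 8 progenitor markers spanned 6666 to 8517 CPM in KO DHT+ENZ, 6953 to 8501 in KO DHT, 6900 to 8557 in KO DMSO and 6795 to 9383 in WT DMSO. The 7 astrocyte markers spanned 355.0 to 460.3 CPM in KO DHT+ENZ, 355.3 to 453 in KO DHT, 349.8 to 489 in KO DMSO and 303 to 416 in WT DMSO. No marker of any list was called in any comparison, and in bulk RNA fewer cells of a type and less RNA per cell cannot be told apart.

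The levels of the 10 genes spanned almost 3 orders of magnitude per transcript length, in TPM (counts per length, scaled to the same sum in each library) averaged over the 16 libraries. Scd2, the stearoyl-CoA desaturase of brain, was at 710.9 TPM (SD 99.3), above every other member in every library. Apoe (219, SD 82.5), Scd1 (122, SD 14.7) and Srebf1 (122, SD 25.1) followed, and their ranges over libraries overlapped. Lpcat3 (54.3, SD 6.46) and Nr1h2 (51.5, SD 6.17) were within each other's spread, and Abca1 lay below both at 15.6 (SD 5.28), with 8.73 to 26.1 TPM. Mylip (1.35), Nr1h3 (1.21) and Abcg1 (0.802) were the lowest and did not differ beyond their spread. They rested on 62 to 124, 10 to 38 and 21 to 89 counts per library.

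**Figure D1:**
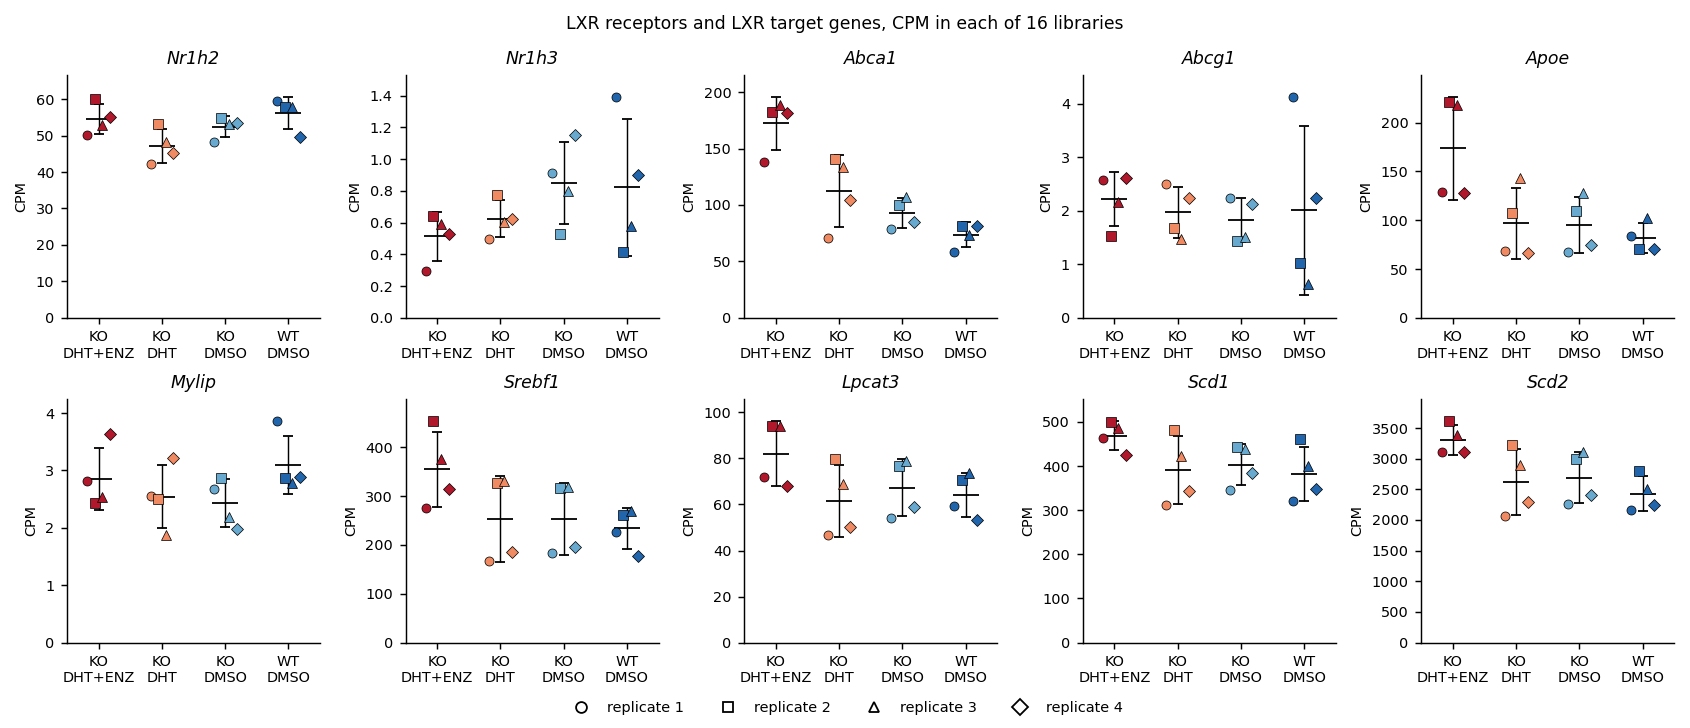
CPM (y axis, linear from 0) of each of the 10 genes in the 16 libraries, with the 4 groups along the x axis, 1 point per library (the shape gives the replicate number) and the mean with SD as a bar. Abca1 in the KO DHT+ENZ libraries (138 to 188 CPM) lies above all KO DMSO (79.0 to 107) and WT DMSO libraries (58.3 to 81.7), while Nr1h2 stays between 42.1 and 59.9 CPM in all groups.

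Of the receptors, Nr1h2 was the more abundant. It was at 50.2, 59.9, 52.9 and 55.1 CPM in KO DHT+ENZ replicates 1 to 4, at 42.1, 53.3, 48.2 and 45.3 in KO DHT, at 48.3, 54.8, 53.1 and 53.5 in KO DMSO, and at 59.6, 57.9, 57.7 and 49.6 in WT DMSO. The ranges of all groups overlapped. Its log2 fold change was 0.06 (SE 0.09) for KO DHT+ENZ over KO DMSO and 0.21 (SE 0.09, adjusted p = 0.653, edgeR with Benjamini-Hochberg adjustment) for KO DHT+ENZ over KO DHT. Over KO DHT it was higher in 4 of 4 same-numbered pairs, a description given without the share of all genes. With the replicate number as a block the adjusted p was 0.142, and 0.0242 when WT DMSO replicate 1 was also left out. Nr1h3, the LXRα gene, was at 0.293 to 0.639 CPM in KO DHT+ENZ, 0.495 to 0.775 in KO DHT, 0.531 to 1.15 in KO DMSO and 0.414 to 1.39 in WT DMSO. Its log2 fold change for KO DHT+ENZ over KO DMSO was -0.73 (SE 0.39, adjusted p = 0.988, edgeR), lower in 3 of 4 pairs, and it was the only 1 of the 10 genes below 0 there.

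KO DHT+ENZ was compared with KO DMSO to see where the lipid genes stood after both drugs against vehicle. The cholesterol export genes Abca1 and Apoe had fitted levels 1.86 and 1.83 times as high with both drugs, Srebf1 1.40 times, and the lipid enzymes Lpcat3, Scd1 and Scd2 1.22, 1.16 and 1.23 times. No member was called by edgeR in the model of the 4 groups without a block, where 0.253% of all 16971 genes tested were called and 2 members had an unadjusted p under 0.05. With the replicate number as a block, 5 of the 10 were called higher (Abca1, Apoe, Srebf1, Lpcat3 and Scd2) and 0 lower, against 2.94% of all genes called in either direction and 0.854% called higher. DESeq2 without the block called Abca1 alone and gave no adjusted p for Abcg1 and Nr1h3. Without replicate 2, 3 or 4 in the blocked model, 2, 3 and 1 of the 10 were called, with Abca1 among them each time. Of all genes, 222, 152 and 59 were called in these models. The replicate numbers met the rule for pairing, so both models are given wherever they differ. The share of all genes that were higher in every pair is not given for the comparisons of KO DHT+ENZ. Pair directions there only describe each gene. Group ranges are given in CPM unless named otherwise, and CPM is not scaled for length. In TPM, taken without a test, all KO DHT+ENZ libraries lay above all KO DMSO libraries for Abca1, Apoe, Srebf1, Lpcat3, Scd1 and Scd2. The groups overlapped in TPM for Nr1h2, Nr1h3, Abcg1 and Mylip. The share of all genes that lay apart in TPM is not given.

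Abca1 encodes the transporter that hands cholesterol and phospholipid to apolipoproteins at the cell surface. It was at 138, 182, 188 and 182 CPM in KO DHT+ENZ replicates 1 to 4, against 79.0, 100.4, 107 and 85.3 CPM in KO DMSO. Every KO DHT+ENZ library lay above every KO DMSO library, which 2.92% of all genes did in the higher direction, and replicate 1 was the lowest in both groups. The log2 fold change was 0.89 (SE 0.18, 1.86-fold, adjusted p = 0.0543, edgeR), and 0.89 with the block (SE 0.10, adjusted p = 0.000353, edgeR). Pair by pair it was 0.80, 0.86, 0.81 and 1.09. The blocked call held when any 1 replicate number was left out (adjusted p = 0.000163 to 0.0220, edgeR), and without WT DMSO replicate 1 Abca1 was called without the block too (adjusted p = 0.0345, edgeR).

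Apoe encodes the main apolipoprotein of brain lipoprotein particles. It was at 129, 221, 218 and 128 CPM in KO DHT+ENZ replicates 1 to 4, against 67.7, 109.9, 128 and 74.8 CPM in KO DMSO. Replicates 2 and 3 were high and replicates 1 and 4 low in both groups, so the CPM ranges met while each pair differed. In TPM the ranges lay apart, at 270 to 392 in KO DHT+ENZ and 148 to 244 in KO DMSO. The log2 fold change was 0.87 (SE 0.27, 1.83-fold, adjusted p = 0.358, edgeR) and 0.87 with the block (SE 0.13, adjusted p = 0.00205, edgeR), with pairs at 0.93, 1.01, 0.77 and 0.78. Without replicate 4 the blocked adjusted p was 0.0537. Abcg1, which encodes a transporter that acts after ABCA1 by giving cholesterol to lipid-bearing particles, was at 1.54 to 2.61 CPM in KO DHT+ENZ and 1.44 to 2.23 in KO DMSO. Its log2 fold change of 0.28 (SE 0.42, adjusted p = 1, edgeR) was within the spread between replicates. Mylip, which encodes a ubiquitin ligase (IDOL), was at 2.43 to 3.63 CPM in KO DHT+ENZ and 1.97 to 2.87 in KO DMSO, with a log2 fold change of 0.23 (SE 0.21, adjusted p = 1, edgeR).

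Srebf1 encodes SREBP-1, the transcription factor of fatty acid synthesis. It was at 276, 453, 375 and 315 CPM in KO DHT+ENZ replicates 1 to 4, against 183, 317, 318 and 197 CPM in KO DMSO. Each KO DHT+ENZ library exceeded the KO DMSO library of its number, and the CPM ranges overlapped. In TPM the ranges lay apart, at 142.9 to 167.5 in KO DHT+ENZ and 93.8 to 131 in KO DMSO. Its log2 fold change was 0.49 (SE 0.25, adjusted p = 0.931, edgeR) and 0.51 with the block (SE 0.11, adjusted p = 0.0182, edgeR), while the blocked adjusted p was 0.105 without replicate 2 and 0.245 without replicate 4. Lpcat3 encodes an enzyme that puts polyunsaturated fatty acids into membrane phospholipids. It was at 72.0, 94.1, 94.2 and 68.1 CPM in KO DHT+ENZ, against 54.3, 76.7, 79.0 and 59.0 CPM in KO DMSO, again higher in each pair. This gave a log2 fold change of 0.29 (SE 0.18, adjusted p = 1, edgeR) and 0.29 with the block (SE 0.07, adjusted p = 0.0447, edgeR). The blocked call was kept without replicate 1 and lost without replicate 2, 3 or 4 (adjusted p = 0.105, 0.229 and 0.254, edgeR) and when the counts were offset by kallisto's effective lengths (0.0883).

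The desaturases Scd1 and Scd2 place a double bond in saturated fatty acids, and reads that their near-identical stretches share were divided by kallisto's model. Scd2 was at 3107, 3608, 3385 and 3104 CPM in KO DHT+ENZ replicates 1 to 4, against 2256, 2992, 3107 and 2413 CPM in KO DMSO. All 4 pairs were higher, by 0.46, 0.27, 0.12 and 0.36 on the log2 scale. The log2 fold change was 0.29 (SE 0.14, adjusted p = 0.903, edgeR) and 0.31 with the block (SE 0.07, adjusted p = 0.0258, edgeR), a call that held without replicate 1 and not without replicate 2, 3 or 4 (adjusted p = 0.102, 0.0607 and 0.271, edgeR). Scd1 was at 465, 499.9, 486 and 426 CPM in KO DHT+ENZ and at 345, 444, 439.5 and 385 CPM in KO DMSO, higher in each pair. It was not called with the block (log2 fold change 0.23, SE 0.07, adjusted p = 0.132, edgeR), and was called with the block in DESeq2 and, in edgeR, without WT DMSO replicate 1 (adjusted p = 0.0446).

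**Figure D2:**
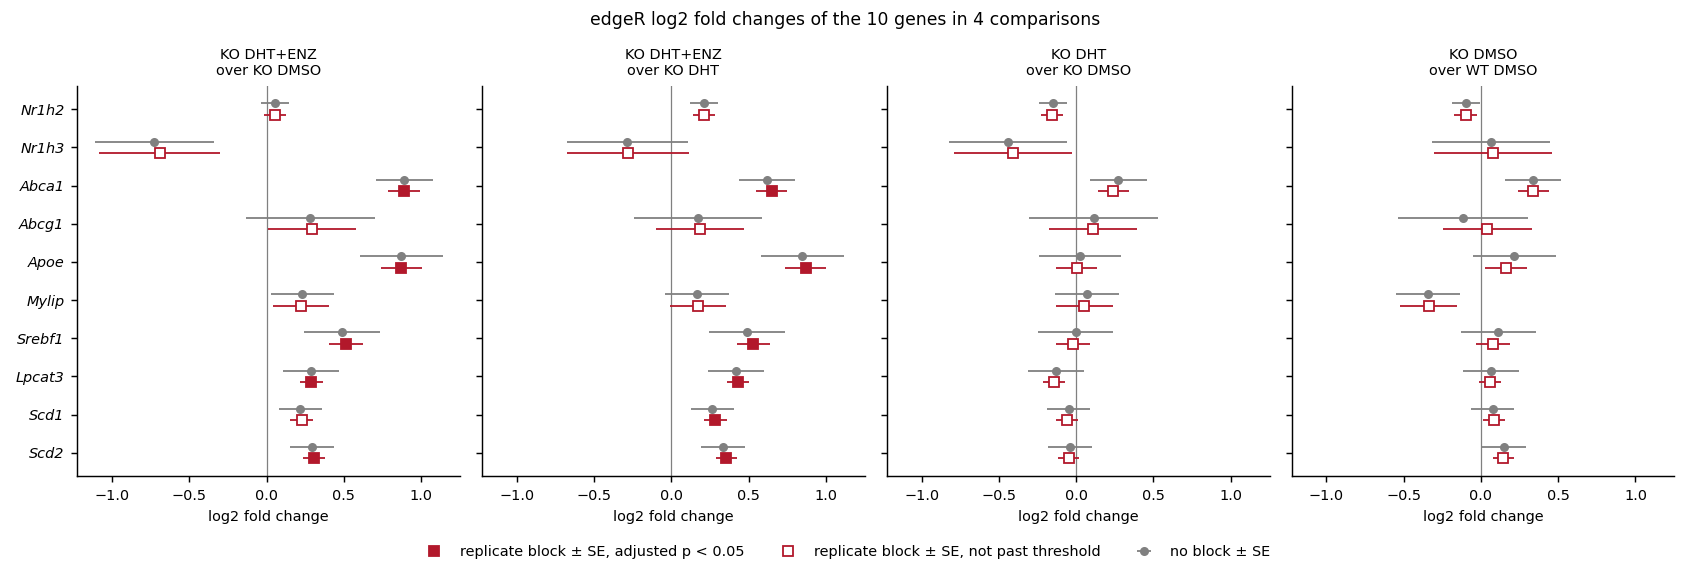
Log2 fold changes (x axis) of the 10 genes in the 4 comparisons, 1 panel each, from edgeR without a block (grey circles) and with the replicate number as a block (red squares, filled where the adjusted p was under 0.05), with SE as bars. The filled squares, 5 in KO DHT+ENZ over KO DMSO and 6 in KO DHT+ENZ over KO DHT, all lie to the right of 0, and the other panels hold none.

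KO DHT+ENZ was also compared with KO DHT, which sets ENZ with DHT against DHT alone. This comparison shares the KO DHT+ENZ libraries with the one before, so their likeness is no separate evidence. Of the 10 genes, 0 were called by edgeR without the block (0.265% of all genes were), 5 had an unadjusted p under 0.05, and DESeq2 without the block called 0. With the block 6 were called higher, Abca1, Apoe, Srebf1, Lpcat3, Scd1 and Scd2, against 3.48% of all genes called in either direction and 1.57% called higher. Without replicate 3 or replicate 4 in the blocked model, 3 and 0 of the 10 were called, beside 78 and 48 of all genes.

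Abca1 stood at 70.4, 141, 134 and 105 CPM in KO DHT replicates 1 to 4, beside the KO DHT+ENZ values above. The lowest KO DHT+ENZ library (138 CPM) fell below the highest KO DHT library (141 CPM), so the CPM ranges just met. In TPM the lowest KO DHT+ENZ library (20.09) lay just above the highest KO DHT library (19.89). Abca1 had a log2 fold change of 0.62 (SE 0.18, adjusted p = 0.268, edgeR), and of 0.65 with the block (SE 0.10, adjusted p = 0.00302, edgeR), with pairs at 0.97, 0.37, 0.50 and 0.80. Without replicate 4 the blocked adjusted p was 0.0638. Apoe stood at 68.9, 108, 144 and 66.7 CPM in KO DHT, and its log2 fold change was 0.87 with the block (SE 0.13, adjusted p = 0.00302, edgeR) and 0.85 without it (SE 0.27, adjusted p = 0.327, edgeR). Without replicate 4 its blocked adjusted p was 0.0671.

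The 4 genes of fatty acid and phospholipid metabolism were called higher with the block. Srebf1 was at 168, 327, 331 and 186 CPM in KO DHT, and its blocked log2 fold change was 0.53 (SE 0.11, adjusted p = 0.0149, edgeR), which was lost without replicate 2 (0.1003) or replicate 4 (0.195). Lpcat3 was at 46.8, 80.0, 68.8 and 50.3 CPM in KO DHT, with a blocked log2 fold change of 0.43 (SE 0.07, adjusted p = 0.00513, edgeR), lost without replicate 3 (0.084) or replicate 4 (0.0927). Scd2 was at 2063, 3224, 2893 and 2288 CPM in KO DHT, with 0.35 (SE 0.07, adjusted p = 0.0113, edgeR), lost without replicate 3 (0.0601) or replicate 4 (0.152). Scd1 was at 312, 483, 422 and 344 CPM in KO DHT, with 0.29 (SE 0.07, adjusted p = 0.0426, edgeR), and was not called when any 1 replicate number was left out (adjusted p = 0.0636 to 0.255, edgeR) or with effective length offsets (0.0588). Abcg1 (0.17, SE 0.41) and Mylip (0.16, SE 0.21) had log2 fold changes within their SE in the model without the block. In that model the adjusted p of Srebf1, Lpcat3, Scd1 and Scd2 was 0.759, 0.633, 0.796 and 0.634 (edgeR).

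DHT alone against vehicle, KO DHT over KO DMSO, gave no call for any of the 10 genes. With edgeR 0 were called without the block and 0 with it, as were 0.0% of all genes, with 0 and 2 members at an unadjusted p under 0.05, and DESeq2 called 0 members. The 2 with the block were Abca1 (log2 fold change 0.24, SE 0.10, adjusted p = 0.606, edgeR) and Nr1h2 (-0.16, SE 0.07, adjusted p = 0.622, edgeR). Abca1 was lower in pair 1 (-0.17) and higher in pairs 2 to 4 (0.49, 0.32 and 0.30), and Nr1h2 was lower in 4 of 4 pairs, as were 13.2% of all genes. Apoe (0.02, SE 0.27) and Srebf1 (-0.0034, SE 0.24) lay near 0. Lpcat3, Scd1 and Scd2 were lower in 3 of 4 pairs each, at -0.13, -0.05 and -0.04.

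The guide against Chd1 was compared with the control virus in vehicle, KO DMSO over WT DMSO. None of the 10 genes was called, with edgeR 0 without the block and 0 with it, as were 0.0% of all genes, with 0 and 1 at an unadjusted p under 0.05, and DESeq2 called 0 members. Abca1 was at 79.0, 100.4, 107 and 85.3 CPM in KO DMSO, against 58.3, 81.4, 73.3 and 81.7 CPM in WT DMSO. It was higher in 4 of 4 pairs, by 0.44, 0.30, 0.55 and 0.06, with overlapping ranges, and all 4 pairs were higher for 6.24% of all genes. Its log2 fold change was 0.33 (SE 0.18, adjusted p = 1, edgeR), 0.34 with the block (SE 0.10, adjusted p = 0.513, edgeR) and 0.24 without WT DMSO replicate 1. Scd2 was also higher in 4 of 4 pairs (0.15, SE 0.14). Apoe had 67.7, 109.9, 128 and 74.8 CPM in KO DMSO and 84.1, 70.5, 103 and 70.7 CPM in WT DMSO, lower in pair 1 and higher in the others.

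WT DMSO replicate 1 moved the values of the low genes in that comparison. Abcg1 was at 1.44 to 2.23 CPM in KO DMSO, against 4.14 CPM in that library and 0.642 to 2.24 CPM in WT DMSO replicates 2 to 4. Its log2 fold change was -0.12 (SE 0.42) with that library and 0.49 without it. Nr1h3 and Mylip were also highest of all 16 libraries in it, at 1.39 and 3.86 CPM. Nr1h3 had a log2 fold change there of 0.06 (SE 0.38) with that library and 0.42 without it. For Mylip it was -0.35 (SE 0.21) and -0.22, below 0 whichever library was left out. The same library held the highest summed microglial and macrophage markers, 7.62 CPM over 8 genes against 3.34 to 5.19 in the 15 others, the highest summed endothelial markers, 8.08 CPM over 4 genes against 2.88 to 6.41, and the highest summed pericyte, meninges and fibroblast markers, 5.20 CPM over 6 genes against 0.543 to 1.86, and their part in these values was not tested. In KO DHT+ENZ, KO DHT and KO DMSO the microglial sums were 3.34 to 4.16, 3.70 to 5.12 and 3.77 to 5.19 CPM. A link between these sums and the levels of Apoe and Abca1 was not tested.

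In CPM, the libraries of 1 group varied by replicate number in a way that several target genes shared. Replicates 2 and 3 exceeded replicates 1 and 4 in all 4 groups for Srebf1, Lpcat3, Scd1 and Scd2, and in 3 of 4 groups for Abca1 and Apoe, the exception being WT DMSO. This held in 1 of 4 groups for each of Nr1h2 and Nr1h3 and in 0 of 4 for Abcg1 and Mylip. The split was seen in the data and no label gives it. It depended on the measure. In TPM, KO DHT+ENZ replicates 1 to 4 were at 849.4, 831.3, 785.9 and 846.5 for Scd2 and 144.5, 167.5, 142.9 and 166.6 for Srebf1, without the split. Apoe in KO DHT+ENZ (277, 385, 392 and 270 TPM) and Srebf1 in KO DMSO (93.8, 131, 120 and 105 TPM) kept it. For Srebf1 the difference within KO DMSO, 183 to 318 CPM, was wider than that between the means of KO DHT+ENZ (355.0 ± 77.2) and KO DMSO (253 ± 73.9, SD, n = 4 each). In TPM it was not wider, with 93.8 to 131 within KO DMSO and means of 155 ± 13.5 in KO DHT+ENZ and 112 ± 16.5 in KO DMSO.

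Transcripts of 3 genes were followed as deposited TPM, without a test and without the share of all transcripts whose groups lie apart. Srebf1 has 2 abundant coding transcripts here, Srebf1-207, whose start follows the window printed above, and Srebf1-201, which starts further upstream. Srebf1-207 was at 43.0, 59.9, 53.7 and 54.2 TPM in KO DHT+ENZ replicates 1 to 4, 23.6, 57.2, 37.3 and 34.7 in KO DHT, 30.4, 42.9, 40.1 and 35.5 in KO DMSO, and 38.9, 42.9, 24.1 and 27.8 in WT DMSO. For Srebf1-207 the lowest KO DHT+ENZ library (42.99 TPM) lay just above the highest KO DMSO library (42.86 TPM). Srebf1-201 was at 50.7, 75.9, 59.0 and 56.6 TPM in KO DHT+ENZ, 35.9, 54.0, 67.6 and 37.3 in KO DHT, 36.5, 56.8, 51.2 and 36.02 in KO DMSO, and 38.1, 43.2, 53.6 and 36.9 in WT DMSO. The share of Srebf1-207 in the sum of both was 46.6% ± 2.08 in KO DHT+ENZ, 43.7% ± 7.38 in KO DHT, 45.5% ± 2.96 in KO DMSO and 43.6% ± 9.04 in WT DMSO (SD, n = 4 each), a difference within the spread between replicates.

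Abca1 was almost all Abca1-201, the coding transcript that begins at the printed window, at 22.3 ± 2.55 TPM in KO DHT+ENZ, 15.5 ± 3.71 in KO DHT, 12.3 ± 0.897 in KO DMSO and 9.78 ± 1.92 in WT DMSO (SD, n = 4 each). For Apoe the model put most reads on 3 transcripts, of which Apoe-202 is annotated as processed without a coding sequence. Apoe-202 was at 139, 181, 207 and 130.3 TPM in KO DHT+ENZ, 54.4, 118, 105 and 64.6 in KO DHT, 75.4, 92.5, 115 and 86.7 in KO DMSO, and 86.6, 57.4, 75.1 and 64.6 in WT DMSO. The lowest KO DHT+ENZ library was above the highest library of the other groups. The coding forms Apoe-206 (76.7 ± 11.1 TPM in KO DHT+ENZ, 48.8 ± 8.75 in KO DHT, 45.3 ± 9.06 in KO DMSO and 43.9 ± 6.58 in WT DMSO) and Apoe-209 (80.7 ± 26.3 in KO DHT+ENZ, 51.1 ± 27.8 in KO DHT, 43.7 ± 21.4 in KO DMSO and 34.4 ± 9.11 in WT DMSO) also had their highest mean in KO DHT+ENZ (SD, n = 4 each). For Apoe-209 the lowest KO DHT+ENZ library, at 56.9 TPM, lay below the highest KO DHT library, at 91.9 TPM. Shares between transcripts of 1 gene rest on how kallisto divides shared reads.

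**Figure D3:**
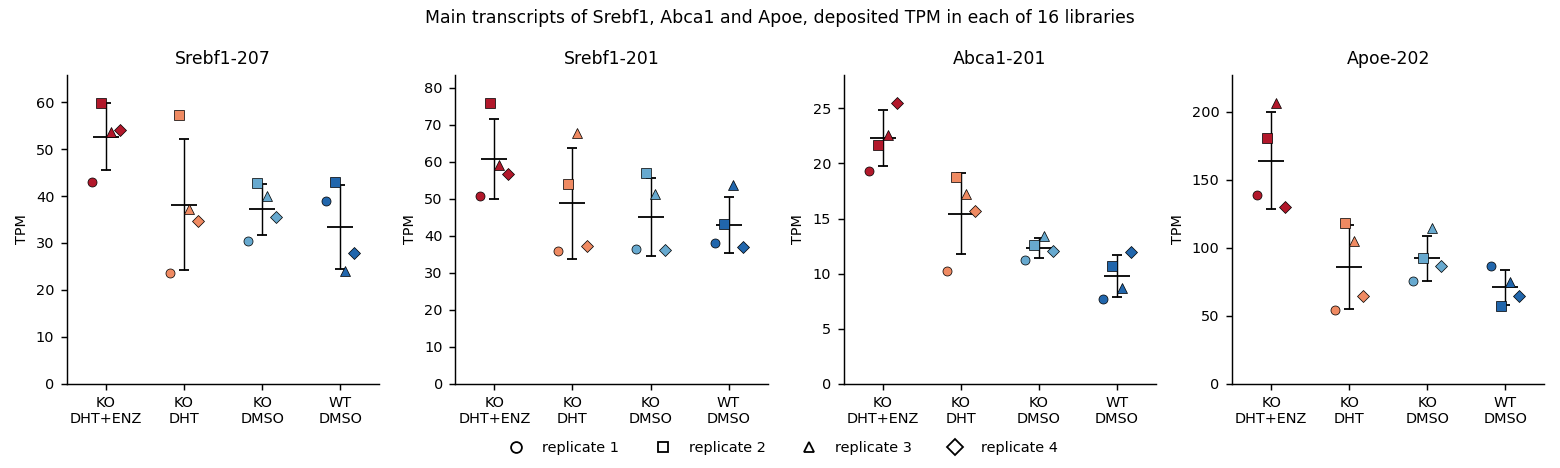
Deposited TPM (y axis, linear from 0) of Srebf1-207, Srebf1-201, Abca1-201 and Apoe-202 in the 16 libraries, with groups along the x axis, 1 point per library and mean with SD as a bar. In KO DHT+ENZ, Abca1-201 (19.4 to 25.5 TPM) and Apoe-202 (130.3 to 207) lie above every library of the other groups, and both Srebf1 transcripts overlap those of KO DHT.

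Other genes of LXR and lipid biology, from lists chosen with earlier results of these data known, were then read in the same fits. Other known LXR targets, such as Abcg4, Apoc4, Lpl, Mertk, Mlxipl and Pltp, had 9 of 15 genes tested and 0 called, with or without the block, in both comparisons of KO DHT+ENZ. Apoc4, Apod and Mlxipl among them were low, at no more than 1.44, 0.728 and 0.836 CPM in any library. Their blocked SEs over KO DMSO were wide (0.45, 0.40 and 0.55), so a change in them could be missed. The median log2 fold change of the 9 tested genes with the block was -0.0020 over KO DMSO and 0.07 over KO DHT, beside 0.29 and 0.32 for the 10 genes above and 0.0063 and -0.0047 for all genes tested. Retinoid X receptors and corepressors (4 of 5 tested) had 0 called, with medians of 0.05 and -0.05. No gene of these lists was called in KO DHT over KO DMSO or in KO DMSO over WT DMSO.

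In the list of fatty acid synthesis and desaturation, 1 of 13 genes was called higher with the block over KO DMSO and 0 over KO DHT, with medians of 0.04 and 0.0963. This was Gpam, which encodes the first enzyme of glycerolipid synthesis, at 89.7, 96.6, 92.5 and 98.9 CPM in KO DHT+ENZ replicates 1 to 4, against 72.4, 77.2, 81.2 and 75.7 CPM in KO DMSO. Its groups did not overlap, as for 2.92% of all genes in the higher direction. Its log2 fold change was 0.30 (SE 0.06, adjusted p = 0.0116 with the block and 0.209 without, edgeR). Over KO DHT the value was 0.22 (SE 0.06, adjusted p = 0.0522 with the block, edgeR).

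Among other lipid transporters and apolipoproteins, 1 of 9 genes tested was called higher with the block in both comparisons, with list medians of 0.03 over KO DMSO and -0.06 over KO DHT. Npc2, which encodes the lysosomal protein that passes cholesterol to NPC1 for export, was at 303, 351, 337 and 296 CPM in KO DHT+ENZ, 236, 243, 262 and 223 CPM in KO DHT, and 237, 269, 279 and 221 CPM in KO DMSO. Each KO DHT+ENZ library lay above every other library. Over KO DMSO alone 2.92% of all genes did so, and the share against all other groups is not given. The log2 fold change was 0.36 over KO DMSO (SE 0.06, adjusted p = 0.00256 with the block and 0.218 without, edgeR) and 0.42 over KO DHT (SE 0.06, adjusted p = 0.00176 with the block and 0.0971 without, edgeR).

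Of 6 tested enzymes that make or clear oxysterol ligands of LXR, Cyp39a1 was the 1 called, and it was lower. Cyp39a1 encodes a hydroxylase that acts on 24-hydroxycholesterol. It was at 7.45, 6.43, 6.41 and 7.54 CPM in KO DHT+ENZ replicates 1 to 4, 11.2, 8.87, 10.1 and 12.01 CPM in KO DHT, and 10.7, 9.81, 10.7 and 10.4 CPM in KO DMSO. All 4 KO DHT+ENZ libraries lay below every other library, and the share of all genes that did so is not given. The log2 fold change was -0.58 over KO DMSO (SE 0.10, adjusted p = 0.00366 with the block and 0.0538 without, edgeR) and -0.59 over KO DHT (SE 0.10, adjusted p = 0.0043 with the block and 0.0444 without, edgeR). The list medians were 0.09 in both comparisons, as the other 5 genes were not called.

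**Figure D4:**
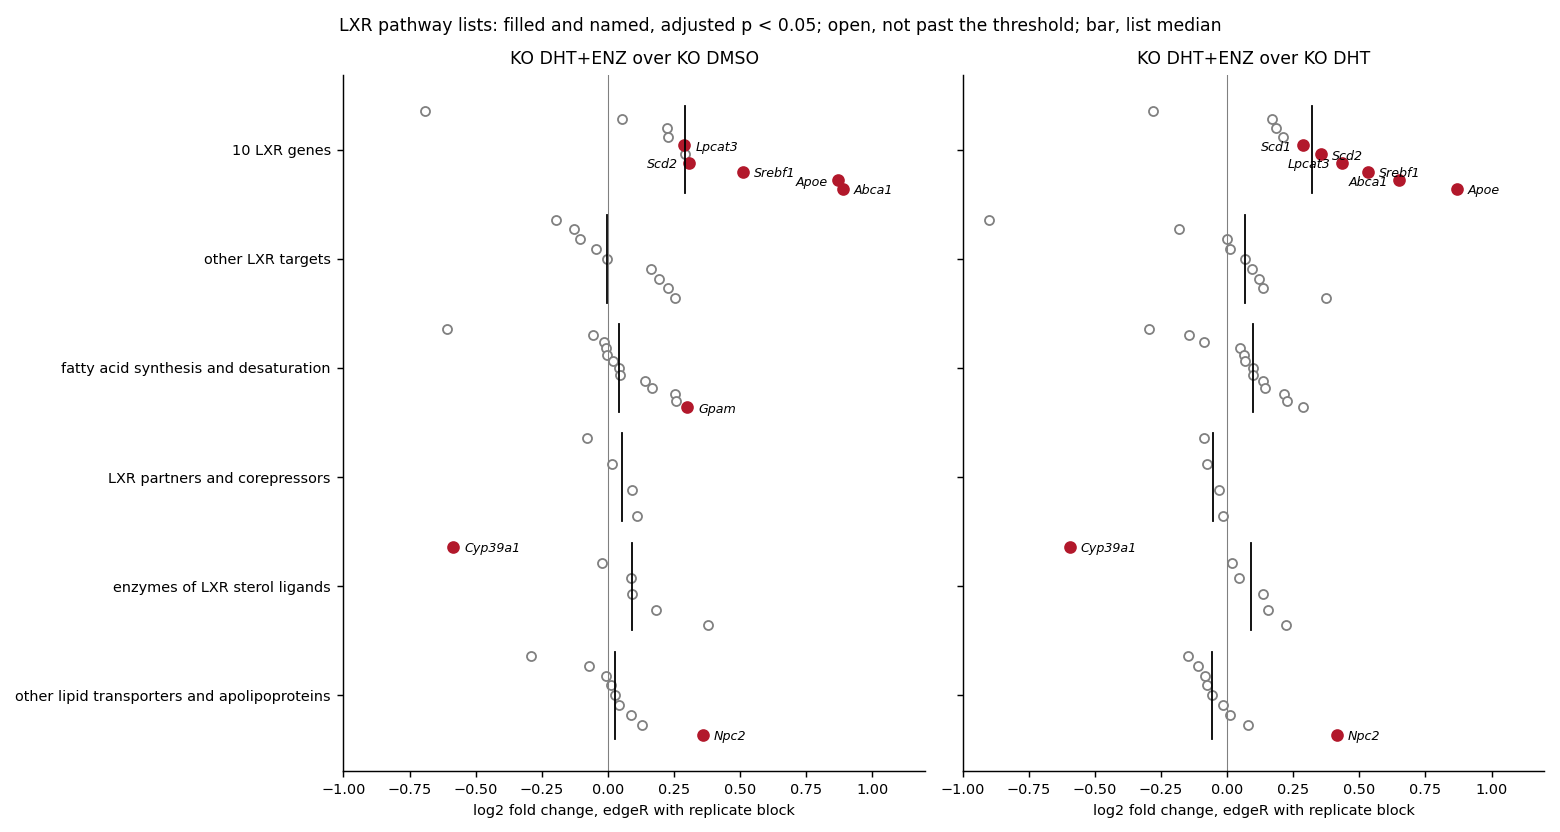
Log2 fold changes (x axis, edgeR with the replicate block) of KO DHT+ENZ over KO DMSO (left) and over KO DHT (right) for the tested genes of 6 lists (y axis), with filled named points where the adjusted p was under 0.05, open points elsewhere and a vertical bar at each list's median. The 10 LXR genes have medians of 0.29 and 0.32, and the other lists have medians between -0.06 and 0.0963 with 0 or 1 called gene each.

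The genes whose profile lay nearest to that of Abca1 were found by the root mean square difference of log2 CPM over the 16 libraries, after the mean of the 4 libraries of each replicate number was removed. The search covered the 10511 genes that averaged 5 CPM or more and had no provisional symbol (such as Gm with digits, or Rik). The 5 nearest were Rragd (0.22), which encodes a GTPase of amino acid signalling to mTORC1, Mroh1 (0.23), Gad1 (0.23), which encodes a GABA-making enzyme, Ppm1h (0.23), which encodes a protein phosphatase, and Apoe (0.23). Rragd was at 59.7, 53.6, 53.0 and 60.3 CPM in KO DHT+ENZ, 44.2, 44.3, 40.1 and 44.9 in KO DHT, 39.7, 36.2, 39.7 and 41.0 in KO DMSO, and 29.6, 33.9, 31.1 and 43.7 in WT DMSO. Abca1 itself, on this scale of log2 CPM from the replicate mean, averaged 0.69 in KO DHT+ENZ, 0.04 in KO DHT, -0.20 in KO DMSO and -0.53 in WT DMSO. Among the other members, Srebf1 ranked 14, Scd2 27, Lpcat3 173, Scd1 200 and Nr1h2 6342 of the 10511 genes. Nr1h2 averaged 0.06 in KO DHT+ENZ, -0.15 in KO DHT, 0.0007 in KO DMSO and 0.10 in WT DMSO on the same scale.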

How the data were processed

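Polyadenylated RNA of 16 cultures was sequenced as paired 150 bp reads, per the labels' protocols, and quantified with kallisto against GRCm39, per the submitters' processing notes (versions and annotation are not given in the sources used here). Per the file headers, the authors deposited estimated counts (expected counts) and TPM for 146190 transcripts per library. Of these, 135007 were matched by identifier to 49166 genes in GENCODE M21 (GRCm38), used for names, types and chromosomes, and held 98.85% to 99.12% of the counts. Chromosome 4 holds Abca1, 2 Nr1h3, 6 Lpcat3, 7 Apoe and Nr1h2, 11 Srebf1, 13 Mylip, 17 Abcg1 and 19 both Scd genes.

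Per gene, the summed estimated counts were rounded, then tested in edgeR 4.0.16 (R 4.3.3) with the quasi-likelihood test, TMM normalization, filterByExpr (16971 genes), 1 model of the 4 groups over all 16 libraries and Benjamini-Hochberg adjustment. A gene was called at an adjusted p under 0.05. SE is the log2 fold change over the square root of F. CPM used the same TMM factors, and TPM were summed per gene without a test. The main model had no block. Replicate numbers were taken to pair the cultures because same-numbered libraries deviated together from their group means (r = 0.16 to 0.79 over 9747 genes, minimum 0.1 set for pairing), though no label gives a shared source. Libraries of unlike number were not correlated, so this check cannot show that the number sets the pairs. P-values measure the spread between these cultures. Alternatives were the replicate block, DESeq2 (pydeseq2 0.5.4), limma-voom (limma 3.58.1), RLE factors, no filter, 2 groups only, length corrections and libraries left out. The method was tested on simulated data. Always named are the 10 genes, with called genes of the wider lists (at most 6 a list) and the 5 genes nearest Abca1. Members and lists were chosen with earlier results of these data known, and 1 further list is not reported here. Tables and figures used Python 3.11.15, pandas 2.3.3, numpy 2.4.6 and matplotlib 3.10.9.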

Additional observations from a re-analysis of the deposited data

Results flagged for a closer look

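Of 40 sets of 4 libraries (10 genes in 4 groups), 2 held a library whose gap to the nearest other exceeded Dixon's 95% critical share of the set's range, and about 1 in 20 sets does so by chance. Abca1 was at 137.7 CPM in KO DHT+ENZ replicate 1, against 181.8 to 188.3 CPM in replicates 2 to 4 of that group. Mylip was at 3.856 CPM in WT DMSO replicate 1, the shallowest library, with 2.78 to 2.879 CPM in WT DMSO replicates 2 to 4.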

How the results depend on the processing

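Members called in KO DHT+ENZ over KO DMSO were 0 in edgeR without the block, 5 with the replicate block, 5 with limma-voom and the block, 6 with DESeq2 and the block, 1 with DESeq2 alone, 5 with the block and a length trend correction and 4 with the block and effective length offsets. Over KO DHT the matching counts were 0, 6, 6, 6, 0, 6 and 5. Counts over all genes in the 2 comparisons were 43 and 45 without the block and 499 and 591 with it, 184 and 212 with DESeq2, 821 and 1037 with DESeq2 and the block, 9 and 17 without the filter, and 288 and 270 with effective length offsets. With limma-voom and the block they were 501 and 598, and with the block and the length trend correction 601 and 608. With RLE factors, no filter or 2 groups only, 0 members were called in either. Without the block, leaving out 1 library gave 0 or 1 members over KO DMSO, the 1 without WT DMSO replicate 1 (beside 98 of all genes), and 0 over KO DHT. With the block, 5, 2, 3 and 1 were called over KO DMSO without replicate 1, 2, 3 and 4, and 5, 4, 3 and 0 over KO DHT, while 6 and 7 were called without WT DMSO replicate 1. Of all genes, these models called 622, 222, 152 and 59 over KO DMSO and 1192, 112, 78 and 48 over KO DHT. Without WT DMSO replicate 1 they called 1247 and 1480 of all genes. In the other 2 comparisons 0 members were called under every alternative, and all 47 changes of sign among 910 gene values fell there. For KO DHT over KO DMSO, effective length offsets gave log2 fold changes of -0.046 for Apoe, -0.34 for Abcg1 and 0.14 for Nr1h3, and 1 library left out gave ranges of -0.23 to 0.20 for Apoe, -0.16 to 0.14 for Srebf1, -0.028 to 0.23 for Abcg1, -0.17 to 0.038 for Scd1, -0.17 to 0.0496 for Scd2 and -0.070 to 0.19 for Mylip. With the block, Apoe was at -0.0075 without replicate 1, -0.054 without replicate 3 and -0.0012 without WT DMSO replicate 1, Srebf1 at 0.0053 without replicate 1 and Mylip at -0.16 without replicate 4. For KO DMSO over WT DMSO, Abcg1 was at 0.041 with the block, 0.012 with the length trend, 0.063 with limma-voom and 0.052 with DESeq2 and the block, and effective length offsets gave -0.24 for Nr1h3 and -0.055 for Lpcat3. With the block Abcg1 was at 0.453 without replicate 1, 0.096 without replicate 4 and 0.452 without WT DMSO replicate 1, and Nr1h3 at -0.027 without replicate 3 and -0.029 without replicate 4. Without the block, 1 library left out gave -0.41 to 0.49 for Abcg1, -0.16 to 0.42 for Nr1h3, -0.013 to 0.25 for Srebf1 and -0.021 to 0.16 for Lpcat3. The cause of these differences was not tested. Calls that the block changed are given beside each gene, and it changed no other member's call.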
